A study of Mus musculus with 141 samples.

Results

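The cytosolic ribosomal protein genes were taken as every gene in the deposited files whose symbol begins with Rpl or Rps followed by a digit, leaving out the Rps6k kinases. The rule found 91 genes of the 24423 in the files. By function these were 43 genes of the large subunit, 30 genes of the small subunit, 9 paralogs of a subunit gene, 6 genes with a pseudogene name, 2 further copies (Rpl32l and Rpl37rt) and Rps19bp1, which encodes a binding partner of a ribosomal protein and no subunit. The 73 genes of the large and small subunits are called canonical here.

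Gene expression was measured by RNA-seq in liver, lung and kidney of 47 Collaborative Cross strains, which are recombinant inbred mouse lines that each carry a mosaic of the same founder genomes. Each strain was represented by 1 male mouse of 8 to 12 weeks that gave all 3 tissues, and all mice had been kept in clean-air chambers for 6 hours a day over 2 weeks, so that no group was untreated or mutant. Total RNA with an integrity number of at least 7.0 was depleted of ribosomal RNA and read in single 50-base reads. The 3 groups were the tissues, with 47 libraries each, and a difference between strains cannot be told apart from a difference between mice or between libraries.

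The ribosome translates messenger RNA into protein. Its small subunit decodes the message, its large subunit joins amino acids, and each carries a set of proteins bound to ribosomal RNA that are needed in about equal copy number. Most subunit proteins in mammals come from 1 active gene, whose messenger RNA often starts with a run of pyrimidines through which growth signals control its translation. Mammalian genomes also hold many processed copies of these genes, made by reverse transcription of the messenger RNA, and most of the copies are silent.

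Liver libraries held 1738046 to 42158454 expected counts with a median of 10423382, lung libraries 2829104 to 17585682 with a median of 9338124, and kidney libraries 3046695 to 15028553 with a median of 8245850. In the median library, the 20 most abundant genes took up 58.6% of liver, 34.6% of lung and 43.1% of kidney counts. A single one of them, the ribosomal RNA precursor Rn45s, held between 0.321 and 69.0% of a liver library, between 0.696 and 71.7% of a lung library and between 0.146 and 63.1% of a kidney library. The marker genes of each tissue were in place: 4 liver markers summed to between 13720 and 120700 counts-per-million (CPM) in liver and to at most 1698 elsewhere, 4 lung markers to at least 1926 in lung and at most 72.73 elsewhere, and 4 kidney markers to at least 4977 in kidney and at most 341.8 elsewhere. Single markers could be low in their own tissue: Ager had a median of 2.123 CPM in lung and Cdh16 of 2.313 in kidney, each at 0 in 1 library there. Germ cell markers stayed at or under 0.2421 CPM in every library. In these whole-tissue libraries, fewer cells of a type and less RNA per cell cannot be told apart.

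The members held a small share of every library. In liver the share of the counts ran from 0.136 to 1.67%, with a median of 0.805%. In lung it ran from 0.145 to 2.39%, with a median of 1.45%, and in kidney from 0.265 to 1.80%, with a median of 0.990%. The ranges overlapped, but within a mouse the share was higher in lung than in liver in 37 of the 47 strains. As a share of transcripts-per-million (TPM), which corrects for transcript length, the medians were 2.89% in liver, 5.28% in lung and 3.53% in kidney. With the 20 most abundant genes of each library left out, the medians drew closer, at 1.89, 2.35 and 1.87% of the remaining counts, and lung exceeded liver in 40 of 47 strains.

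The canonical subunits differed widely in their level per length. Among the 61 with a median of at least 10 counts in every tissue, the median TPM in liver ran from 18.12 for Rps15a to 1256 for Rpl41, and in lung from 49.99 for Rps15a to 2181 for Rpl41. The inner part of this distribution was narrow: the upper quartile was 1.70 times the lower quartile in liver, 1.74 times in lung and 1.60 times in kidney. TPM divides by the listed length, which was 5134 bases for Rps15a and 449 for Rpl41. In counts, the medians of Rps15a were 299 in liver and 698 in lung, and those of Rpl41 were 1689 and 2185. The part of the listed lengths in the range of TPM was not tested. Across these 61 genes the order of the median levels was shared between tissues, with Pearson's r of 0.966 (liver with lung), 0.991 (liver with kidney) and 0.970 (lung with kidney; rho 0.877, 0.960 and 0.909). Genes are not independent replicates, so these correlations are a description.

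Rpl41, which encodes a very short basic protein of the large subunit, had the highest median TPM in each tissue. Its TPM in liver was 339.6 to 2037 with a median of 1256, in lung 370.1 to 3113 with a median of 2181, and in kidney 770.2 to 2800 with a median of 1890. Rpl10, which encodes a large-subunit protein that joins late in assembly near the catalytic site, came second in each, with 292.3 to 2042 in liver (median 1167), 335.8 to 2994 in lung (median 1841) and 495.6 to 1859 in kidney (median 1235). The ranges of these neighbours overlapped within every tissue. The small-subunit genes Rps18 (875 TPM in liver), Rps29 (718.2 in liver, 1488 in lung and 897.4 in kidney) and Rps12 (1481 in lung) and the large-subunit genes Rpl23a (659.3, 1493 and 885.4) and Rpl7 (919.7 in kidney) filled the other places among the 5 highest medians of a tissue.

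**Figure D1:**
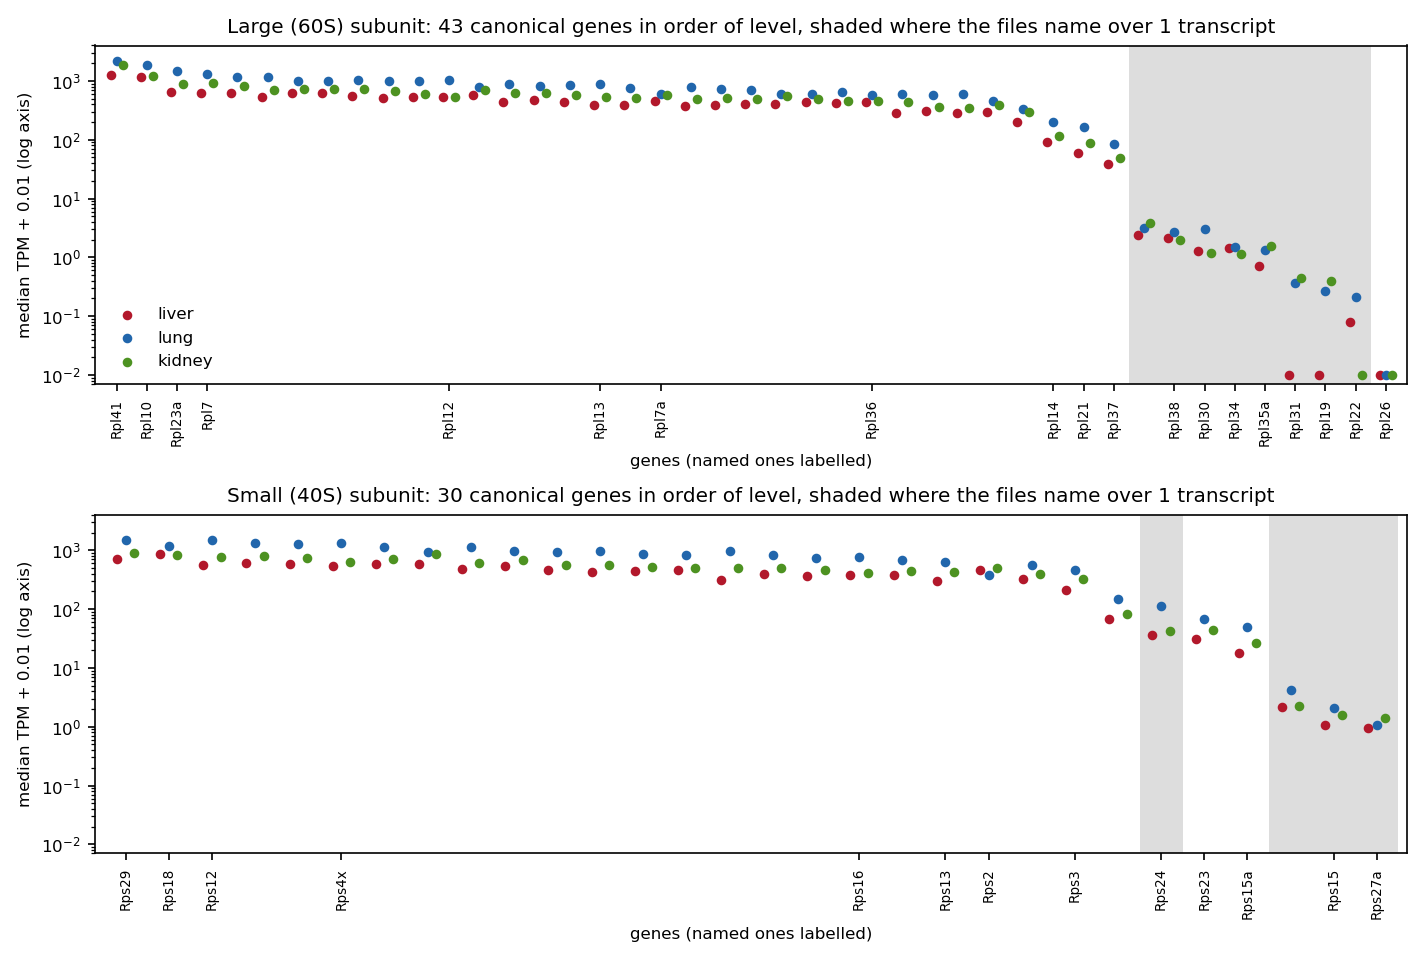
Median TPM of each of the 43 large-subunit (upper panel) and 30 small-subunit genes (lower panel) on a log axis with 0.01 added, in order of level and labelled where the gene was chosen by the rule for named genes, with 1 point per tissue (liver red, lung blue, kidney green) and grey behind genes with more than 1 listed transcript. Most genes form a slope that falls from Rpl41 at 2181 TPM in lung, some such as Rps15a, Rps23, Rpl37 and Rps24 lie below it, and the points near 0 lie on grey apart from Rpl26. The listed length by which TPM divides is 5134 bases for Rps15a.

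A separate group of members was listed near 0. The median over libraries was at or under 3 counts for 19 members in liver, 15 in lung and 19 in kidney. Among these, canonical genes made up 10 in liver, 9 in lung and 10 in kidney, and the rest were mostly paralogs and pseudogene names. The canonical genes with the lowest medians over all libraries were Rpl19 and Rpl26 at 0 counts, Rpl22 and Rpl31 at 1, Rpl35a and Rpl38 at 2, and Rpl30, Rpl34, Rps15 and Rps27a at 3. These encode proteins of the ribosomal subunits (RPS27A is made as a fusion with ubiquitin), and the values are those of the deposited files, in which reads aligned to more than 1 place were not counted. A count of 0 allows a true value of up to 3 counts, and this limit covers counting error only.

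The near-zero genes were mostly those for which the files list several transcripts. Of the 61 canonical genes with 1 listed transcript, 1 (Rpl26) had a median at or under 3 counts in each tissue, and the median TPM of the 61 in liver was 435.71, that in lung 841.13 and that in kidney 530.76. Among the 12 canonical genes with more than 1 listed transcript, 9 were at or under 3 counts in liver, 8 in lung and 9 in kidney, and their median TPM was 1.18, 1.78 and 1.495. The 12 were Rpl19, Rpl22, Rpl29, Rpl30, Rpl31, Rpl34, Rpl35a, Rpl38, Rps15, Rps24, Rps27 and Rps27a. Only Rps24, whose protein belongs to the body of the small subunit, exceeded a median of 10 counts, with 90 in liver, 256 in lung and 104 in kidney. Over all genes in the files the same split was weaker: medians at or under 3 counts were seen for 52.1% of the 18311 genes with 1 transcript and 70.8% of the 6112 genes with more than 1 in liver, 40.5 and 54.8% in lung, and 46.4 and 63.0% in kidney. How RSEM shared reads among transcripts in these files was not tested.

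The share of a gene that is copied elsewhere in the genome was set beside its level. For the members with gene models on the NCBIM37 assembly, every 50-base window of 1 spliced transcript per gene, the one closest in length to that of the files, was searched on both strands of the genome. A window counted as having no copy if its letters were found nowhere outside the gene. The median share of windows without a copy was 36.2% for the canonical genes with 1 transcript (60 with a value) and 32.3% for the 12 with more. Rps12, a small-subunit gene, had 1.9% of its windows without a copy and 0.0% in another listed gene. Its medians were 908, 1906 and 1031 counts in liver, lung and kidney. Rpl22 had 94.1% without a copy and 5 listed transcripts, and its medians were 1, 1 and 0 counts. Across the 60 genes with 1 transcript, Spearman's rho between the share without a copy and the median TPM came to -0.296 in liver, -0.204 in lung and -0.286 in kidney, given as a description across genes of the same libraries. A reference genome, not the strains' own, was searched. The authors mapped reads to transcriptomes as well, and whether a copy outside the listed genes cost a gene reads was not tested.

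Some of the lowest genes have copies that are themselves listed genes. Rpl26 had 70.6% of its windows in Gm15772, a gene named here after the values were seen, and was at 0 in 46 liver, 47 lung and 47 kidney libraries, while Gm15772 was at 0 in all. Rps27 had 98.6% of its windows in Rps27rt, and the medians were 4, 8 and 3 counts for Rps27 against 0 in every library for Rps27rt. Rpl30 had 62.8% of its windows in Gm12191 and medians of 3, 5 and 2 counts in liver, lung and kidney, and Rpl34 had 44.7% in Rpl34-ps1 and medians of 3, 2 and 2. Copies of this kind did not always go with low counts: Rpl24 had 36.1% of its windows in the listed gene Gadl1 and medians of 847, 1036 and 965 counts.

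The start sites of the members carried the pyrimidine run more often than those of other genes. RefSeq promoter windows (GRCm38.p6, 250 bases before to 50 after the start) were matched by symbol to 66 of the 91 members, 54 of them canonical. A run of at least 8 C or T on the coding strand within 20 bases of the start was found for 27 of the 54 canonical genes (50%) and for 18.4% of the 17496 genes of the files with a window. The windows below run over 30 bases around the start of some of the genes that were the most changed or the most abundant, with capitals for the longest run of at least 5 C or T, which Rpl41 and Rpl10 lack in these 30 bases.
Rpl41, chr10:128549154-128549183, minus strand: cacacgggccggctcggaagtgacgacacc
Rpl10, chrX:74270801-74270830, plus strand: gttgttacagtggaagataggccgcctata
Rps18, chr17:33955651-33955680, minus strand: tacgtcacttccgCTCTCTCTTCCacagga
Rps12, chr10:23787195-23787224, minus strand: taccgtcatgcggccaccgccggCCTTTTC
Rpl22l1, chr3:28805493-28805522, plus strand: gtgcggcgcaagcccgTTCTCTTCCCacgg
Rps27l, chr9:66946071-66946100, plus strand: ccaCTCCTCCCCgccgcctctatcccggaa
Rpl36al, chr12:69184053-69184082, minus strand: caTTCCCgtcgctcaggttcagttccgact
The runs of Rps18 and Rpl22l1 lay over or just after the start, whereas Rpl36al had a run of only 5 letters before it. On both strands of the 300-base window, CCGGAAG was found in 40.7% of the canonical genes and 12.8% of all genes, AAGATGG in 16.7 and 7.34%, and GGGCGG in 59.3 and 49.5%. TATAAA on the coding strand in the 50 bases before the start was found in 0 of 54 canonical genes and in 3.61% of all genes. These matches are a description of letters and no evidence of a bound factor.

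Differences between tissues were tested with limma-voom on expected counts, with strain as a block since the 3 tissues came from the same mouse. Scaling was by trimmed means of M-values (TMM), 12127 genes passed the filter on low counts, and 71 of the 91 members were among them. A gene was called at a Benjamini-Hochberg q of at most 0.1 over all 12127 genes together with a log2 fold change of 1 or more in either direction. For liver against lung, 11 members were called higher in liver and 0 higher in lung, where 23.7 and 31.2% of all genes were called. For liver against kidney, 3 members were called higher in liver and 0 in kidney, where 14.7 and 22.0% of all genes were called. For lung against kidney, 0 members were called higher in lung and 5 higher in kidney, where 24.6 and 21.7% of all genes were called. By the share called, the members thus stood below the background in every direction. Their median absolute log2 fold change was 0.54, 0.52 and 0.18 in the 3 comparisons, against 1.16, 0.64 and 0.88 over all genes.

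Most members moved by a small amount in 1 direction on this scale. By q alone, 64 members were higher in liver and 2 in lung (background 45.0 and 48.4%), 67 were higher in liver and 1 in kidney (background 40.2 and 47.4%), and 24 were higher in lung and 28 in kidney (background 44.8 and 46.2%). The median log2 fold change of the members was 0.54 for liver against lung, 0.52 for liver against kidney and -0.01 for lung against kidney, beside -0.07, -0.07 and -0.02 over all genes. Within each mouse, the median difference of the members between liver and lung lay between 0.14 and 1.35 and was above 0 in 47 of 47 strains. Between liver and kidney it lay between 0.15 and 1.02 and was also above 0 in 47 of 47, while between lung and kidney it was above 0 in 20 of 47.

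The direction of this common shift depended on the scaling. With counts scaled only by the library total, the median of all genes moved to -1.43 for liver against lung, -0.95 for liver against kidney and 0.46 for lung against kidney, and the median of the members to -0.82, -0.34 and 0.47. The member calls then split as 1 higher in liver and 14 in lung, 0 in liver and 1 in kidney, and 3 in lung and 1 in kidney. Of all genes, 9.78 and 61.6%, 8.09 and 47.8%, and 33.3 and 15.1% were called in this way. On log2(TPM + 1) the member calls split as 1 and 24, 0 and 1, and 3 and 1. The background on that scale was 8.28 and 57.5%, 6.76 and 34.6%, and 30.7 and 12.8% of all genes. The members' median relative to the median of all genes was 0.60, 0.60 and 0.01 with TMM. With library totals it was nearly the same, at 0.62, 0.61 and 0.01, and on log2(TPM + 1) it was 0.27, 0.35 and 0.10. Which of these scales reflects the RNA content of a cell was not tested, and the log2 fold changes of single genes below are from the TMM scale unless another is named.

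**Figure D2:**
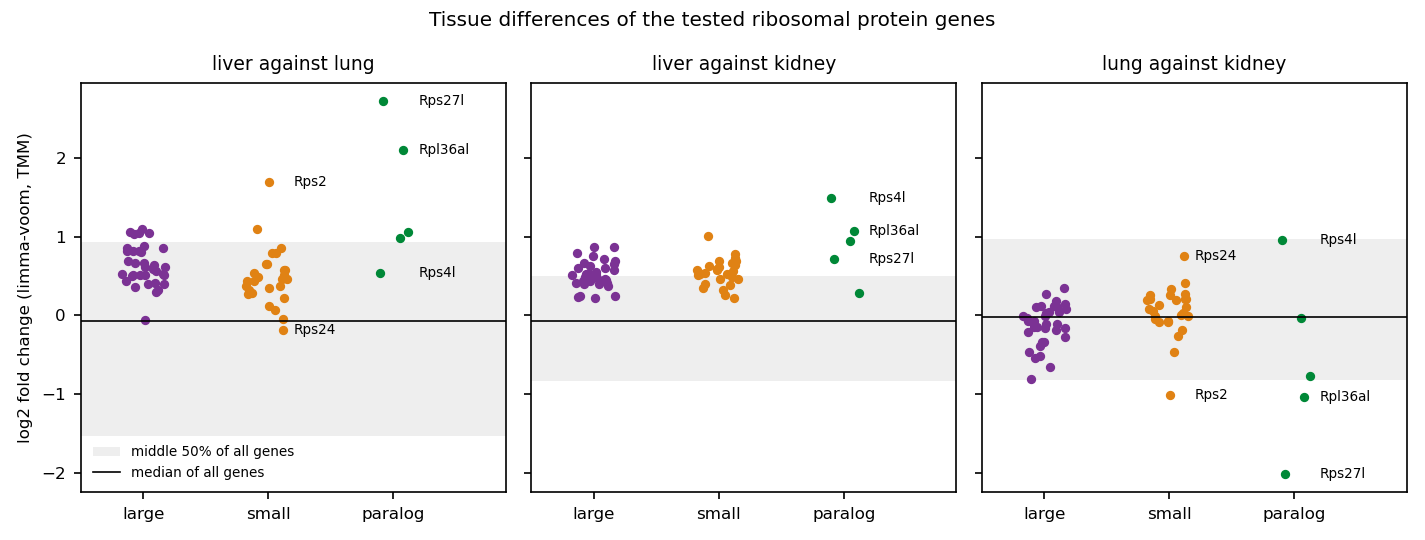
Log2 fold change of each tested large-subunit, small-subunit and paralog gene (points, spread sideways) between tissues on TMM-scaled counts, with the median (line) and the middle 50% (grey) of all 12127 tested genes. Rps27l at 2.72, Rpl36al at 2.10 and Rps2 at 1.69 stand above the other genes in liver against lung, and below most in lung against kidney.

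By subunit, few genes of either group were called. Of the 35 tested large-subunit genes, 5 were called higher in liver than in lung, and none was called in the comparisons with kidney (lung against kidney and liver against kidney: 0 and 0 in both directions). The 35 had median log2 fold changes of 0.61, 0.50 and -0.10 for liver against lung, liver against kidney and lung against kidney. Of the 27 tested small-subunit genes, 2 were called higher in liver than in lung, 1 higher in liver than in kidney and 1 higher in kidney than in lung, with medians of 0.46, 0.54 and 0.08. For lung against kidney, 12 of the 35 large-subunit and 17 of the 27 small-subunit genes had values above 0. Of the 5 tested paralogs, 3, 2 and 2 were called, with medians of 1.05, 0.94 and -0.76. The paralogs were thus the group with the largest medians, but 5 genes are few and the groups were not tested against each other.

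In the large subunit, the 5 called genes were Rpl24, Rpl28, Rpl7a, Rpl36 and Rpl29, all just over the threshold. Rpl7a, whose protein lies on the outer face of the large subunit, had 119 to 326 scaled CPM in liver (median 206), 60.4 to 172 in lung (median 104) and 118 to 249 in kidney (median 160). The ranges of liver and lung overlapped, but liver was higher in 47 of 47 strains, with a log2 fold change of 1.04 ± 0.045 (SE, limma q = 5.25e-41). With counts scaled by the library total this change was -0.30. Rpl24 (1.03), Rpl28 (1.05) and Rpl36 (1.09) had log2 fold changes of the same size with TMM, and these were -0.32, -0.30 and -0.23 with library totals. Rpl29 had a log2 fold change of 1.05 on medians of only 8, 8 and 9 counts in liver, lung and kidney.

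In liver against kidney, the large-subunit genes with the largest changes were Rpl10 and Rpl12. Rpl10 had 336 to 769 scaled CPM in liver (median 517), 175 to 394 in lung (median 286) and 207 to 363 in kidney (median 287). It changed by 0.88 on the log2 scale for liver against lung, 0.87 for liver against kidney and 0.00 for lung against kidney. For Rpl12, whose protein sits at the base of the stalk that binds translation factors, the values were 0.52, 0.87 and 0.35. Neither passed the fold threshold, and with library totals both changes between liver and kidney were near 0, at 0.01 for Rpl10 and 0.004 for Rpl12.

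In the small subunit, Rps2 changed the most. Rps2 encodes a protein near the messenger RNA entry channel, and had 181 to 441 scaled CPM in liver (median 258), 45.9 to 150 in lung (median 79.4) and 103 to 327 in kidney (median 159). The ranges of liver and lung did not overlap. It differed on the log2 scale by 1.69 ± 0.052 for liver against lung (SE, limma q = 2.81e-53, higher in 47 of 47 strains) and -1.005 ± 0.052 for lung against kidney (limma q = 2.09e-34, higher in kidney in 47 of 47). The direction was kept with library totals, at 0.35 and -0.52. Between liver and kidney the change was 0.69 with TMM and -0.17 with library totals.

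Rps18, whose protein lies in the head of the small subunit, was called higher in liver than in both other tissues. It had 148 to 435 scaled CPM in liver (median 243), 66.2 to 182 in lung (median 117) and 48.2 to 179 in kidney (median 128). Liver was higher in 47 of 47 strains in both comparisons, with log2 fold changes of 1.09 and 1.01, while lung and kidney differed by -0.09 (limma q = 0.105). With library totals the first of these turned to -0.25 and the second stayed positive at 0.15.

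Rps24 went the other way in liver against lung. It had 6.88 to 26.6 scaled CPM in liver (median 16.5), 10.3 to 32.1 in lung (median 19.3) and 4.46 to 17.3 in kidney (median 11.4), so that all ranges overlapped. It differed on the log2 scale by -0.18 for liver against lung (limma q = 0.0156, lung higher in 32 of 47 strains) and 0.75 for lung against kidney (lung higher in 44 of 47), and both kept their direction with library totals, at -1.56 and 1.27. Rps24 has 3 listed transcripts, so its level rests on the reads that the files kept for it. Rps4x, an X-linked gene of the small subunit, Rps12 and Rpl21 were the other members with the largest positive changes for lung against kidney, at 0.41, 0.33 and 0.28.

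The paralogs included the largest changes of the whole set. Rps27l encodes a protein close to RPS27 and is known as a target of p53, and its coding sequence differs from that of Rps27 at 61 of 255 bases. The first 150 coding bases of both genes, from the NCBIM37 assembly (Rps27 at chr3:90016593-90017573 on the minus strand, Rps27l at chr9:66793893-66797319 on the plus strand), are shown with the 35 differing bases in capitals.
Rps27: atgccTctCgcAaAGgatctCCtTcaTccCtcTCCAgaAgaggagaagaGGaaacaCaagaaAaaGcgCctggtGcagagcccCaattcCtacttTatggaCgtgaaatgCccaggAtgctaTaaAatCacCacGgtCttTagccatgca
Rps27l: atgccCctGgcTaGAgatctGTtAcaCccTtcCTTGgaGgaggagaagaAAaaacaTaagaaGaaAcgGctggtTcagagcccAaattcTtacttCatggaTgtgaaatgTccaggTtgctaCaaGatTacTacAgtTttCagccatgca
None of the 206 windows of 50 bases along the coding sequence was identical between the pair (0 of 206). That count covers exact matches within the pair only. Over the whole transcript, windows without a copy elsewhere in the genome made up 73.3% of Rps27l and 0.3% of Rps27. Rps27l had 10.1 to 42.0 scaled CPM in liver (median 25.5), 0.885 to 6.10 in lung (median 4.16) and 8.76 to 21.8 in kidney (median 15.7). Every liver and every kidney library was above every lung library. It differed on the log2 scale by 2.72 ± 0.065 for liver against lung (SE, limma q = 8.57e-63, 47 of 47 strains), -2.01 ± 0.066 for lung against kidney (limma q = 6.04e-51, 47 of 47) and 0.71 for liver against kidney (46 of 47). The first 2 kept their direction with library totals, at 1.39 and -1.55, and the third turned to -0.15. Its level was not set against that of Rps27, whose counts were near 0. The files list 2 transcripts for Rps27l, so its level, too, rests on the reads that the files kept for it.

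Rpl36al is an intron-poor relative of the X-linked gene Rpl36a, and the pair encodes almost the same large-subunit protein. Their coding sequences differ at 39 of 321 bases (87.9% identical) and share 0 of 272 windows of 50 bases. The first 150 coding bases in NCBIM37 (Rpl36a at chrX:131120193-131122595 on the plus strand, Rpl36al at chr12:70283728-70285070 on the minus strand) hold 23 of the differences, in capitals.
Rpl36a: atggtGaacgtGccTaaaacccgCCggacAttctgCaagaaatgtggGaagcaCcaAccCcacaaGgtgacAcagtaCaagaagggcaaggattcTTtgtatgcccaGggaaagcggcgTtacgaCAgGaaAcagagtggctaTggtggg
Rpl36al: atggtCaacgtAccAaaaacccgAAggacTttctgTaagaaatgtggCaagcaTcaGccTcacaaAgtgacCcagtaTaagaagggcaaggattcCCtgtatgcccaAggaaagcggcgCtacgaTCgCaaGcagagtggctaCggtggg
Rpl36al had 112 to 199 scaled CPM in liver (median 155), 27.9 to 47.1 in lung (median 36.8) and 58.1 to 99.2 in kidney (median 71.8). The 3 ranges did not overlap. The log2 fold changes were 2.10 ± 0.035 for liver against lung, 1.07 ± 0.035 for liver against kidney and -1.03 ± 0.036 for lung against kidney (SE), each in 47 of 47 strains, with limma q of 7.17e-77, 1.43e-50 and 7.93e-49. All 3 kept their direction with library totals, at 0.75, 0.21 and -0.54.

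The balance within this pair differed between tissues, a comparison that no scaling of libraries can change. Rpl36al had 1.34 to 2.52 times the TPM of Rpl36a in liver (median 1.69, above 1 in 47 of 47 libraries), 0.497 to 0.829 times in lung (median 0.601, above 1 in 0 of 47) and 0.898 to 1.95 times in kidney (median 1.30, above 1 in 46 of 47). The log2 ratio differed between liver and lung by 1.49 ± 0.228 (SD, n = 47 strains), between liver and kidney by 0.389 ± 0.252 and between lung and kidney by -1.10 ± 0.212. In sign-flip permutation tests over strains (two-sided, 100000 permutations, 9 comparisons over 3 pairs), p was 1e-05 for each of the 3, the smallest these permutations can give, and q was 1.8e-05. Rpl36a alone had 58.3 to 118 scaled CPM in liver, 36.6 to 81.7 in lung and 34.6 to 72.0 in kidney.

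**Figure D3:**
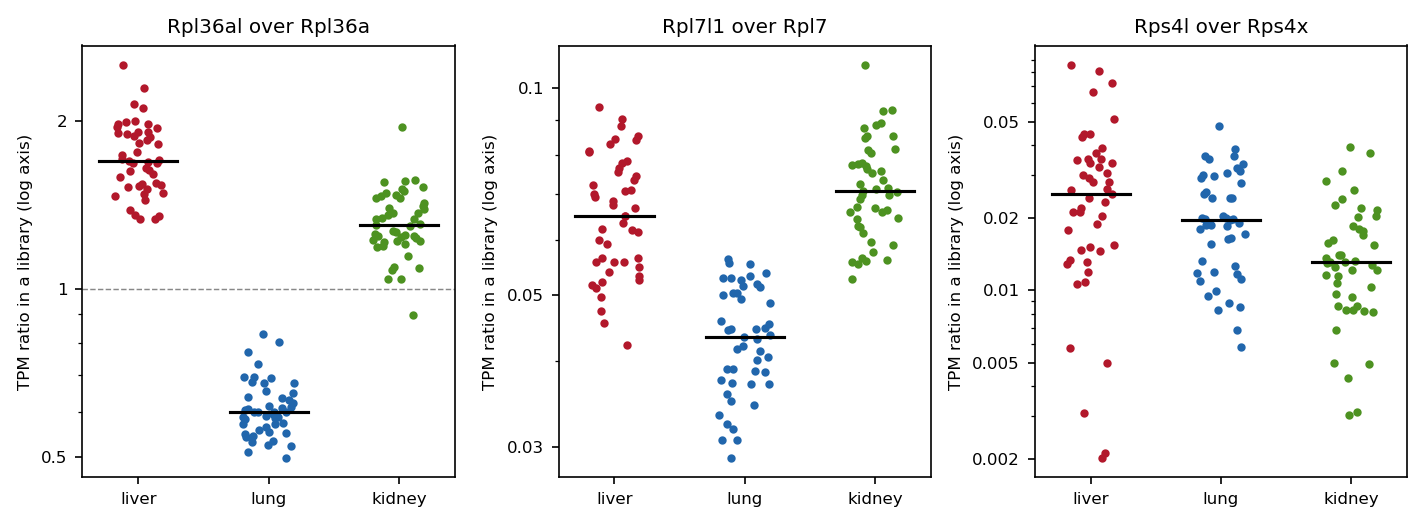
TPM of a paralog divided by TPM of its parent gene, on a log axis, with 1 point per library, 47 libraries per tissue and a line at the median. On the reads counted, Rpl36al exceeded Rpl36a (dashed line at 1) in 47 of 47 liver and 46 of 47 kidney libraries and in 0 of 47 lung libraries.

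The other pairs were less balanced on the reads counted. Windows without a copy made up 33.2% of Rpl7 and 85.2% of Rpl7l1, and 15.7% of Rps4x and 84.3% of Rps4l. Rpl7l1, whose protein acts in large-subunit assembly, stood at a median of 0.0652 times the TPM of Rpl7 in liver, 0.0434 in lung and 0.0709 in kidney. The log2 ratio was higher in liver than in lung by 0.608 ± 0.259 (SD, n = 47, permutation q = 1.8e-05) and lower in lung than in kidney, with a difference of -0.736 ± 0.254 (permutation q = 1.8e-05), while liver and kidney differed by -0.129 ± 0.307 (permutation q = 0.0072, lower in liver in 32 of 47). Rps4l, an autosomal relative of Rps4x, stood at 0.0256, 0.0196 and 0.0131 times the TPM of Rps4x. Its ratio was higher in liver than in kidney by 0.72 ± 1.13 on the log2 scale (36 of 47 strains, permutation q = 0.00012) and higher in lung than in kidney by 0.495 ± 0.894 (33 of 47, permutation q = 0.00072), and liver and lung differed by 0.225 ± 1.08 (permutation q = 0.161). With TMM, Rps4l itself differed on the log2 scale by 1.49 for liver against kidney, the largest change of the tested members in that pair. For lung against kidney it differed by 0.95, under the fold threshold. The spread of Rps4l between strains was wide, with 0.553 to 22.5 scaled CPM in liver, 1.53 to 9.14 in lung and 0.663 to 6.36 in kidney.

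Rpl22l1, a paralog of Rpl22 with a role in blood cell development, had 2.31 to 19.8 scaled CPM in liver (median 10.9), 1.39 to 10.03 in lung (median 5.53) and 1.18 to 9.52 in kidney (median 5.67). It differed on the log2 scale by 0.98 for liver against lung and 0.94 for liver against kidney, under the fold threshold, and the first turned to -0.36 with library totals. The remaining paralogs were near 0. Rpl10l, a retrotransposed copy of Rpl10 that serves male germ cells, was at 0 in 47 liver, 45 lung and 46 kidney libraries. Rpl39l was at 0 in 42, 33 and 44. Rpl3l, the striated muscle counterpart of Rpl3, was at 0 in 29 liver, 12 lung and 28 kidney libraries and reached 12.08 TPM in lung. The 5 cardiac muscle markers summed to 18.09 to 606.8 CPM in lung (median 174), to at most 19.67 in liver and to at most 2.626 in kidney, and the 5 skeletal muscle markers to 2.646 to 1661 in lung (median 41.63), to 0 to 557.2 in liver (median 3.74) and to at most 1.647 in kidney. Among the cardiac markers, Tnnt2 was at 0 in 46 lung libraries and Myl7 in 0. The part of these muscle markers in the level of Rpl3l was not tested.

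Lung libraries also carried more markers of dividing cells and of lymphocytes. The 5 proliferation markers had median sums of 5.941 CPM in liver, 63.24 in lung and 18.24 in kidney, and the 6 lymphocyte markers 1.591, 54.37 and 1.581. Their part in the differences of the members between lung and the other tissues was not tested.

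Rps19bp1, which is no subunit, was higher in liver and kidney than in lung with TMM, with log2 fold changes of 1.38 for liver against lung and -1.11 for lung against kidney. The first was 0.006 with library totals and the second kept its direction at -0.67. Rpl32l was called higher in kidney than in lung, at -1.06 for lung against kidney, on median scaled CPM of 0.700 in lung and 1.60 in kidney.

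Other genes of the translation machinery were measured in the same fit. Fau, a ribosomal protein gene outside the naming rule that encodes a fusion of a ubiquitin-like protein with a small-subunit protein, was called higher in liver than in lung, with a log2 fold change of 1.40 (limma q = 4.46e-21) that fell to 0.03 with library totals. Of 39 tested translation factor genes, 12 were called higher in liver than in lung and 0 the reverse, 1 and 0 for liver against kidney, and 1 and 6 for lung against kidney, with medians of 0.79, 0.30 and -0.48. The background was 23.7 and 31.2%, 14.7 and 22.0%, and 24.6 and 21.7% of all genes, as for the members. With library totals these calls became 0 and 8, 0 and 4, and 5 and 0, beside 9.78 and 61.6%, 8.09 and 47.8%, and 33.3 and 15.1% of all genes, a setting added for these lists after the data were seen. With TMM, the initiation factor genes Eif3i (1.49) and Eif4g1 (1.46) led in liver against lung, and Eif1 (1.17) was the call in liver against kidney. In lung against kidney, Naca (1.08), which encodes part of a complex that binds nascent chains, was higher in lung, and Gspt1 (-1.30), a termination factor gene, and Eef1e1 (-1.26) were higher in kidney.

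Of 42 tested genes of ribosome biogenesis, 5 were called higher in liver than in lung and 0 the reverse, 2 and 1 for liver against kidney, and 0 and 3 for lung against kidney, beside the same background. With library totals these became 0 and 10, 0 and 5, and 0 and 2, so the values that follow are those with TMM. Nop10, part of the particle that makes pseudouridine in ribosomal RNA, had 1.69 for liver against lung and -1.70 for lung against kidney. Nhp2, another protein of that particle, had -1.34 for liver against kidney and -2.56 for lung against kidney. Gnl3 (1.54 and 1.16) and Utp14a (1.24 in liver against kidney) were higher in liver. Of 17 tested regulators of ribosomal protein synthesis, 2 and 4 were called in liver against lung, 1 and 4 in liver against kidney, and 1 and 3 in lung against kidney, beside the same background, and with library totals 0 and 10, 1 and 9, and 3 and 2. With TMM, Eif4ebp1, an inhibitor of cap-dependent initiation, was higher in liver, with 1.31 against lung and 2.01 against kidney. Mtor, the kinase that promotes translation of the pyrimidine-run messengers, was higher in kidney, with -1.82 for liver against kidney and -2.53 for lung against kidney. The kinase gene Rps6ka6 was lower in liver than in lung and kidney, at -3.60 and -5.33, and Rps6ka2 was higher in lung, at -2.48 for liver against lung and 2.14 for lung against kidney.

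Between strains, the spread of most members was near that of other abundant genes in liver and kidney and above it in lung, with a few wide exceptions. On log2 scaled CPM, the standard deviation over the 47 strains had a median of 0.295 over the 71 tested members in liver (0.186 to 1.74), 0.311 in lung (0.161 to 1.62) and 0.252 in kidney (0.134 to 1.45). Of the 71 members, 60 were in the top 25% of all tested genes by mean level, where the median over all genes came to 0.279 in liver, 0.234 in lung and 0.241 in kidney. Below those medians lay 30 members in liver, 11 in lung and 33 in kidney. Rpl4, which encodes a large-subunit protein that lines the exit tunnel, varied the least in each tissue, with 392 to 666 scaled CPM in liver, 226 to 406 in lung and 272 to 425 in kidney. With library totals the median spread of the members rose to 0.842, 0.902 and 0.739.

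**Figure D4:**
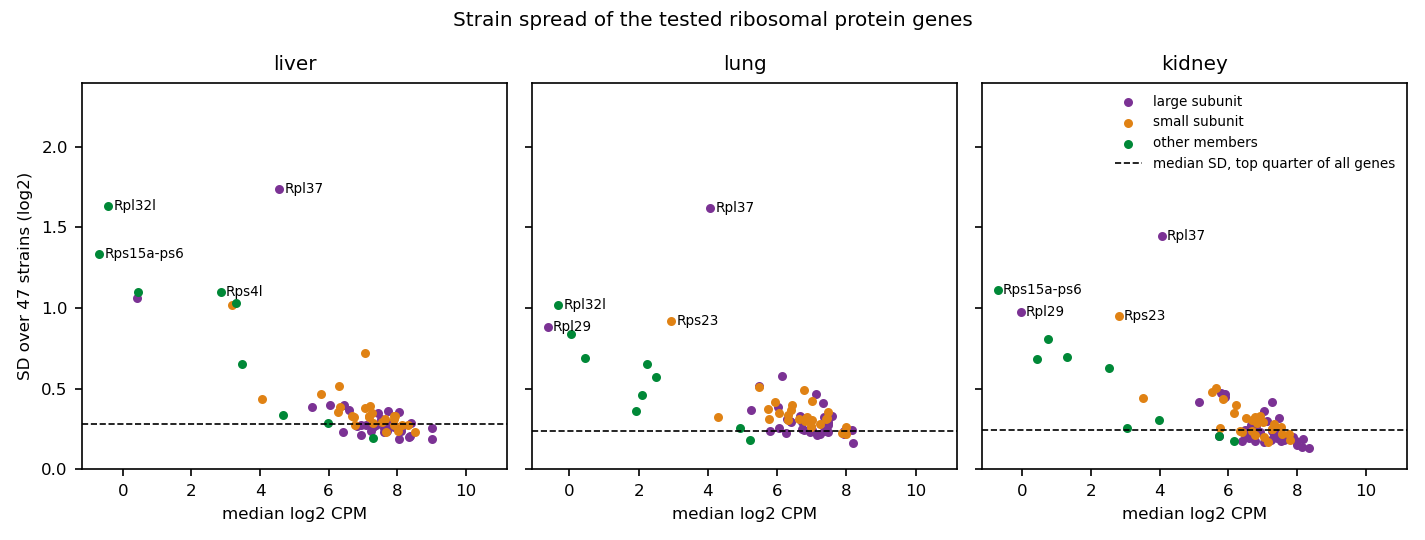
Standard deviation over 47 strains of log2 TMM-scaled CPM against the median log2 CPM of each tested member (points, coloured by role), by tissue, with a dashed line at the median over the most abundant 25% of all tested genes. Rpl37 lies far above the other subunit genes in each tissue, at 1.74, 1.62 and 1.45, and most subunit genes lie near the line in liver and kidney and above it in lung.

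Rpl37 varied the most in all 3 tissues. It encodes a zinc-binding protein of the large subunit and lies at chr15:5066613-5069140 on the plus strand of NCBIM37, with 4 exons. Its copy Rpl37rt lies at chr5:115552931-115560277 on the minus strand. The 294 coding bases of Rpl37, laid along the Rpl37rt transcript where most bases matched, had 1 mismatch (99.7% identical). In that stretch, 199 of the 245 windows of 50 bases are the same in both. The first 150 of these bases hold 0 differences, and are shown for Rpl37 so that the shared bases can be seen. The part of this copy in the counts of Rpl37 was not tested.
Rpl37: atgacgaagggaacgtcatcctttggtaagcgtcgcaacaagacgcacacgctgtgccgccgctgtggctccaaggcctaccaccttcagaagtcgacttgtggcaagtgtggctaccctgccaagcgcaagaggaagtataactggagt
Over the whole transcript, 33.6% of the windows of Rpl37 were found in Rpl37rt and 66.4% had no copy. Rpl37rt itself had at most 2 counts in every library.

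The same 5 strains, CC002, CC015, CC017, CC030 and CC039, had the lowest Rpl37 in liver, lung and kidney. They lay between 0.395 and 1.35 scaled CPM in liver, between 0.492 and 1.09 in lung and between 0.614 and 1.35 in kidney. The next strain stood at 8.68 in liver, 7.40 in lung and 6.19 in kidney, which left a gap of 6.42, 6.81 and 4.60 times. The medians were 23.5, 16.8 and 16.6 and the highest values 118, 65.6 and 51.5. In counts, CC002 had 4 in liver, 6 in lung and 7 in kidney, and CC046 had 1097, 944 and 1075. CC021, CC035 and CC046 were among the 5 highest in every tissue. Since the strains fell into separate clusters, the tissues were correlated within the other 42 strains. There, Pearson's r of rank-normalised values was 0.890 (liver with lung), 0.875 (liver with kidney) and 0.894 (lung with kidney; rho 0.833, 0.850 and 0.892), each with a permutation p of 1e-05, the smallest the 100000 permutations can give, and a q of 1e-05 over the 3 pairs. With the 2 most distant strains on the x axis left out, r was 0.857, 0.856 and 0.874.

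**Figure D5:**
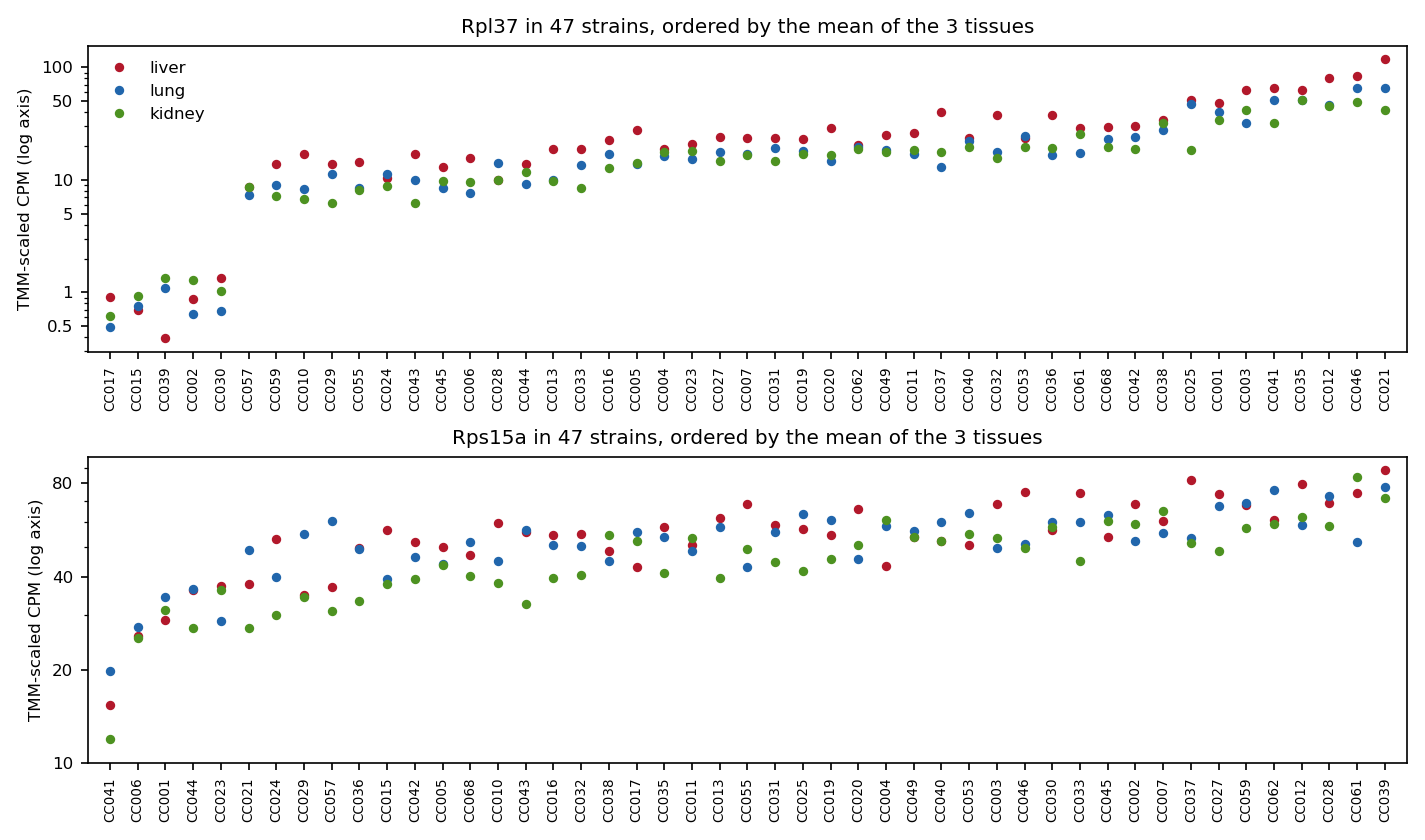
TMM-scaled CPM of Rpl37 (upper panel) and Rps15a (lower panel) in each of 47 strains on a log axis, with strains ordered by the mean of the 3 tissues and 1 point per tissue. The 5 strains at the left for Rpl37 are the lowest in all 3 tissues and stand apart from the other 42, and CC041 is the lowest for Rps15a.

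Rps23 was the next most variable canonical gene among those with a median of at least 10 counts in the tissue. It encodes a small-subunit protein at the decoding centre, and 92.2% of its windows lie in other listed genes, with the most in Gm5148. It had 3.11 to 68.3 scaled CPM in liver (median 9.07), 3.83 to 53.2 in lung (median 7.58) and 3.29 to 49.9 in kidney (median 6.90). The standard deviation on the log2 scale was 1.02, 0.918 and 0.952. Gm5148 had medians of 0, 1 and 0 counts and at most 3, 27 and 12. Rpl29, below that number of counts, had 1.06, 0.885 and 0.978. In liver, Rps4l (1.10), Rps19bp1 (1.03) and Rps16 (0.721, from 16.2 in CC044 to 195 in CC002) also varied widely. The value of Rps19bp1 rested on CC033, which had 0 counts, and was 0.357 without that library, a setting chosen after the data were seen. In lung, the others of the 5 widest with at least 10 counts were Rpl32l (1.02), Rps15a-ps6 (0.838) and Rps19-ps3 (0.693), and in kidney Rpl32l (0.807), Rps4l (0.696) and Rps19-ps3 (0.686).

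Spread was also compared among canonical genes with gene models and a median of at least 10 counts in every tissue. This left out Rpl26, Rpl29, Rpl30, Rpl31, Rpl34 and Rps27, which have over 25% of their windows in a listed gene. Of the rest, those with the largest share of windows in another listed gene had a higher median spread, but Rpl24 did not. The 5 with more than 25% of their windows in a listed gene, Rpl14, Rpl24, Rpl37, Rps23 and Rps26, had a median standard deviation of 0.388 in liver, 0.512 in lung and 0.503 in kidney, and the other 55 had 0.284, 0.306 and 0.238. Rpl24 lay below these, at 0.239, 0.225 and 0.177. This limit of 25% was chosen after the values were seen, so the comparison is a description.

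In some strains the copy had high counts. Rpl14-ps1 shares windows with Rpl14, a large-subunit gene, and had a median of 3, 5 and 3 counts in liver, lung and kidney. In 6 strains, CC001, CC015, CC023, CC025, CC028 and CC046, it held between 19.3 and 71.7% of the counts of both genes in liver, between 18.5 and 60.5% in lung and between 22.3 and 66.3% in kidney. In the other 41 strains it held at most 8.23, 6.71 and 5.26%. CC046 had 1333 counts on Rpl14-ps1 in liver, 728 in lung and 1292 in kidney, beside 527, 476 and 657 on Rpl14. The same strains thus stood apart in all 3 tissues.

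Rps26, a small-subunit gene, and Gm6654 behaved in the same way. CC020 and CC068 had between 21.8 and 22.5% of the pair's counts on Gm6654 in liver, between 21.8 and 23.7% in lung and between 18.6 and 24.2% in kidney, and the other 45 strains had at most 3.42, 5.77 and 6.28%. Rpl31-ps12 was high in a single strain: CC041 had 139 counts in liver, 306 in lung and 75 in kidney, and the next highest strain of each tissue had 5, 26 and 7. Rpl31 itself had 1, 1 and 2 counts in that strain. These 3 pairs were chosen after their values were seen, and the part of the founder genomes in them was not tested.

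A member's strain order was shared between tissues for a minority of the members. Values of all 12127 genes were correlated across the 47 strains for each tissue pair, with q over all genes and pairs. Positive correlations passed q of at most 0.1 for 15 of the 71 members in liver and lung (21.1%, where 11.6% of all genes passed), 17 in liver and kidney (23.9%, background 16.8%) and 15 in lung and kidney (21.1%, background 14.7%). No member had a negative correlation past this threshold (0 in each pair). With counts scaled only by library totals, 1, 4 and 2 members passed (1.41, 5.63 and 2.82%), beside 0.907, 2.78 and 1.84% of all genes.

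Rps15a, a gene of the small-subunit body, had the largest r after Rpl37 in liver and kidney and in lung and kidney. Its r was 0.53 (liver with lung), 0.65 (liver with kidney) and 0.62 (lung with kidney; rho 0.43, 0.58 and 0.58, permutation q of r 0.00415, 0.000671 and 0.000671). With the 2 most distant strains left out, r was 0.44, 0.58 and 0.54. CC041 was the lowest strain in every tissue, at 15.4, 19.9 and 12.0 scaled CPM, against medians of 54.8, 53.1 and 45.7. Rpl21, a large-subunit gene, had 0.59, 0.49 and 0.62 (rho 0.68, 0.56 and 0.66, permutation q 0.000974, 0.0106 and 0.000671), and 0.64, 0.53 and 0.65 without 2 strains. Its scaled CPM ran from 37.4 to 117 in liver, from 26.4 to 175 in lung and from 26.6 to 156 in kidney.

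Rpl14 passed in all 3 pairs, with r of 0.48, 0.52 and 0.44 (permutation q 0.0135, 0.00609 and 0.0256; rho 0.44, 0.45 and 0.44). Rpl13 had 0.61 for liver and lung (rho 0.56, permutation q 0.000974, 0.56 without 2 strains), but 0.32 for liver and kidney (permutation q 0.156). Rps13 had 0.53 (rho 0.49, permutation q 0.00545) and Rps3, a small-subunit gene also known for DNA repair, 0.50 (rho 0.49, permutation q 0.00899) for liver and kidney. Rps4l had 0.47 (rho 0.45, permutation q 0.0167) and Rpl32l 0.45 (rho 0.46, permutation q 0.0218) for lung and kidney. With 1 mouse per strain, a shared order across tissues can come from the strain or from the mouse, and these cannot be told apart.

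Within a tissue the canonical subunits moved together across strains. Over the 61 with enough counts, the median r between pairs of genes came to 0.54 in liver, 0.42 in lung and 0.23 in kidney, and the first principal component held 54.3, 43.7 and 32.8% of their variance. These correlations share libraries and scaling and are a description. The mean level of the 61 differed by 1.996 times between the lowest and the highest strain in liver, 1.92 times in lung and 1.42 times in kidney. No correlation of this common level between tissues was detected: r was 0.0913 (liver with lung), 0.130 (liver with kidney) and 0.107 (lung with kidney; rho 0.0864, 0.159 and 0.0305), each with a permutation q of 0.541 for r over 6 relations, and 0.102, 0.0527 and 0.0334 with the 2 most distant strains left out.

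In liver and kidney the common level moved with the share of Rn45s, the ribosomal RNA precursor, in the same libraries. In lung this was less clear. Pearson's r between level and share came to -0.631 in liver, -0.310 in lung and -0.466 in kidney over 47 strains (permutation p of 1e-05, 0.034 and 0.00102, q of 6e-05, 0.068 and 0.00306). Spearman's rho was -0.630, -0.255 and -0.518 (permutation p of 1e-05, 0.0852 and 0.00017, q of 6e-05, 0.17 and 0.00051). Without the 2 farthest strains, r was -0.610, -0.194 and -0.413. The value in lung was the closest to 0 and moved further towards it without those strains, and differences between tissues were not tested. The common level also went with the TMM scaling factor of the libraries, with rho of 0.57 in liver, 0.18 in lung and 0.48 in kidney, given without a test. The part of the scaling in the relation to Rn45s was not tested. Whether depletion of ribosomal RNA differed between the libraries was not tested.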

How the data were processed

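The authors mapped single-end reads with RSEM and STAR 2.5.3a to a genome and a transcriptome of each strain. Each genome was built by placing the strain's founder variants on the mouse reference (Build 37, mm9). Each transcriptome came from RefSeq annotations carried over to that genome. Uniquely aligned reads were kept, and genes were quantified with RSEM. The paper does not state whether uniqueness was judged on the genome or among the listed transcripts. The deposited files give the RSEM expected counts per gene and TPM (transcripts-per-million) computed by the authors, and how multi-transcript genes were treated there is not given in the sources used here. Of all expected counts, 25 were not whole and were rounded. Groups came from the tissue and strain labels. The authors' batch term is not in the labels and was not used.

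Expected counts were scaled with TMM (edgeR 4.0.16), genes were kept if 30% or more of the 141 libraries exceeded 1 CPM, and limma-voom (limma 3.58.1, R 4.3.3) was fitted with tissue and strain. Strain is the pairing, or replicate block, because 1 mouse per strain gave all 3 tissues. Scaled CPM are counts-per-million after TMM. Strain correlations used rank-inverse-normal values and 100000 two-sided permutations (numpy 2.4.6, scipy 1.17.1), with Benjamini-Hochberg q over all genes and pairs. Both the fit and the correlations were tested on simulated data first. Windows of 50 bases came from NCBIM37 with its gene models, and promoters from RefSeq. P-values cover the spread between these strains, each sampled once, and precision depends on a depth of 1738046 to 42158454 counts per library.

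Genes were named by a fixed rule: the 5 highest median TPM per tissue, the 5 largest changes per tissue pair and direction at a mean of at least 10 CPM, the 5 largest strain standard deviations per tissue at a median of at least 10 counts, the 5 largest r per tissue pair, the paralog pairs, the 10 canonical genes with the lowest counts, and the leading genes of the lists of other translation genes. The members and lists were chosen with earlier results of these data known. Alternatives were DESeq2 1.42.0, edgeR's quasi-likelihood test, other scalings, filters and pseudocounts, no block, and other sets of strains. No amino acid sequences were used here. Some genes measured in the same fit are not reported here.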

Additional observations from a re-analysis of the deposited data

How the results depend on the processing

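The direction of the members' common change between tissues depended on the scaling. Their median log2 fold change turned from 0.54 to -0.82 with library totals, to -0.94 on log2(TPM + 1) and to -0.94 on log2(TPM + 0.1) for liver against lung, and from 0.52 to -0.34, -0.37 and -0.37 for liver against kidney. For lung against kidney it moved from -0.01 to 0.47, 0.57 and 0.57. Relative to the median of all genes, the members' median was 0.60 with TMM for liver against lung and for liver against kidney. It stayed near this with library totals, at 0.62 and 0.61, and on log2(TPM + 0.1), at 0.58 and 0.57. It moved to 0.19 without a filter and 0.27 on log2(TPM + 1) for liver against lung, and to 0.24 and 0.35 for liver against kidney.

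Calls near the fold threshold moved with most choices. For liver against lung, 11 calls became 4 with DESeq2 size factors, 25 on log2(TPM + 1), 27 on log2(TPM + 0.1), 7 without strains CC032 and CC042, 5 with DESeq2, 66 by q alone and 6 for canonical genes alone. Of all genes, 54.9% were called at first, 65.7% on log2(TPM + 1), 73.4% on log2(TPM + 0.1) and 93.5% by q alone. With DESeq2 size factors, without those strains and with DESeq2 this share was 54.8, 54.7 and 55.2%. For liver against kidney, 3 calls became 1 with library totals, 5 without a filter, 1 on log2(TPM + 1), 68 by q alone and 1 for canonical genes. Of all genes, 36.6% were called at first, 55.9% with library totals, 25.3% without a filter, 41.4% on log2(TPM + 1) and 87.7% by q alone. For lung against kidney, 5 calls became 2 with DESeq2 size factors, 3 without CC032 and CC042, 3 with only those tissues fitted, 2 with DESeq2, 52 by q alone and 1 for canonical genes. Of all genes, 46.3% were called at first and with DESeq2 size factors, and 46.2% without those strains and with only those tissues. This share was 46.4% with DESeq2 and 91.1% by q alone. The cause of these moves was not tested. Without the replicate block that pairs tissues of a mouse, 10, 4 and 6 members were called, beside 55.1, 36.8 and 46.5% of all genes. The medians of the members were then 0.54, 0.53 and -0.01, and the pairing moved no member count by over 1.5 times.

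Correlated members became 1, 4 and 2 with library totals and 26, 28 and 28 relative to the members' mean, for liver and lung, liver and kidney, and lung and kidney. The share of the members became 2.89, 5.28 and 3.53% of TPM, and 1.89, 2.35 and 1.87% without the 20 most abundant genes, in liver, lung and kidney. Their strain spread rose to 0.842, 0.902 and 0.739 with library totals. In kidney, 11 members were at or under 1 TPM, against 19 at or under 3 counts. Of the recomputed summaries, 94 stayed, 41 moved and 6 reversed, and of 210 recomputed changes of named genes relative to the median gene, 201 stayed, 9 moved and 0 reversed. For the canonical genes at or under 3 counts, a median within the limit of a count of 0, no difference is described. After the data were seen, the spread of Rps19bp1 without 1 liver library and the calls of the translation lists with library totals were added, and their values stand beside the results.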
